A study of Mus musculus with 22 samples.

Results

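The genes described here are the histone genes measured in polyadenylated RNA of mouse NIH/3T3 fibroblasts, an established cell line. They were taken from the table of normalized counts by gene symbol, as every histone or histone variant gene whose name begins with H1f, H2a, H2b, H3, H4 or Hist1h to Hist4h, without the H2- antigen genes. This gave 12 of 11208 genes, and no symbol that matched was left out as another kind of gene. They are 3 genes of the linker histone H1 (H1f0, H1fx and Hist1h1c), 6 of H2A (H2afz, H2afv, H2afx, H2afj, H2afy and H2afy2), 1 of H2B (Hist2h2be) and 2 of H3 (H3f3a and H3f3b). No gene of histone H4 was among them.

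The cells carried a stably integrated doxycycline-inducible construct, encoding either the transcription factor E2F1, here the E2F1 line, or nothing, here the EV (empty vector) line. All cells were first starved for 48 h in 0.25% serum, the controls at 0 h included. The 11 groups, with 2 libraries each, were both lines at 0, 2, 6 and 12 h of 500 ng/ml doxycycline, and EV cells at 2, 6 and 12 h after addition of 10% serum. Serum changes were computed against the EV 0 h libraries, so the doxycycline and serum comparisons of the EV line share these controls. Each construct was present in a single line as far as the labels say, so the construct cannot be told apart from other differences between the lines, and serum was given to the EV line alone. Nothing in the labels says that replicates came from separate cultures, so p-values measure the spread between these libraries, which may be technical.

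Most histone protein is made during S phase from replication-dependent genes that lie in clusters. Their messages end in a conserved stem-loop, which is bound by the stem-loop binding protein SLBP, and carry no poly(A) tail. Replacement variants such as H3.3, H2A.Z and H2A.X can be made outside S phase, mostly from genes with introns and ordinary polyadenylated messages. A library selected for poly(A) therefore sees mainly the latter genes and only that part of the former that ends in a tail.

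The stem-loop is a mark of the replication-dependent class, so its sites are shown first, but in the annotation it does not separate the classes fully. It was searched as a fixed pattern of 16 bases in annotated transcripts. A stem-loop with other letters, or beyond the annotated end, would be missed. In GENCODE M21 transcripts, on GRCm38, 101 protein-coding genes have histone names, and the stem-loop was found in 46 of them. Of the 67 in the Hist1 to Hist4 clusters it was found in 44, and only 2 of those 67, Hist1h1c and Hist2h2be, were in the table. Of the 12 genes measured here it was found in 2, against 131 of all 21877 protein-coding genes. Their sites are printed 5′ to 3′ with the stem-loop in capitals.
H2afx: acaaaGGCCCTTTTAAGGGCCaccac
Hist1h1c: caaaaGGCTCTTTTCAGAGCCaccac
In H2afx the annotated transcript runs on for 822 bases after the stem-loop, and its last polyadenylation hexamer (AATAAA, or its common variant ATTAAA) lies 35 bases from the end. In Hist1h1c it runs on for 840 bases, and the corresponding distance is 26 bases. Both annotated messages therefore hold a stem-loop and a later hexamer. In the transcript of Hist2h2be the stem-loop was not found, and the hexamer lies 22 bases from the end.

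The genes the results turn on are H2afz (ENSMUSG00000037894.13, chr3:137864487-137866922, plus strand) and H2afv (ENSMUSG00000041126.16, chr11:6427229-6444443, minus strand), which both encode H2A.Z proteins. They also include H3f3a (ENSMUSG00000060743.12, chr1:180800832-180813943, minus strand) and H3f3b (ENSMUSG00000016559.14, chr11:116021912-116027962, minus strand), which both encode H3.3, and H2afx (ENSMUSG00000049932.3, chr9:44334694-44336077, plus strand), which encodes H2A.X. H1fx (ENSMUSG00000044927.6, chr6:87980421-87981637, minus strand) encodes the linker variant H1X, Hist1h1c (ENSMUSG00000036181.2, chr13:23738808-23740367, plus strand) a linker histone of a replication-dependent cluster, and Hist2h2be (ENSMUSG00000068854.7, chr3:96221119-96223738, plus strand) an H2B. The remaining members are H1f0 (ENSMUSG00000096210.2, chr15:79028450-79030504, plus strand), H2afj (ENSMUSG00000060032.6, chr6:136808244-136810074, plus strand), H2afy (ENSMUSG00000015937.15, chr13:56073619-56136361, minus strand) and H2afy2 (ENSMUSG00000020086.6, chr10:61738665-61784147, minus strand). Identifiers are as deposited, and positions are from GENCODE M21.

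The starts of 5 genes are shown because the paralogues among them took different courses after E2F1 induction and after serum. They are RefSeq windows on GRCm38.p6, from 250 bases before to 50 bases after the start, and 10 of the 12 genes, all but H2afx and Hist2h2be, had one by RefSeq symbol. Capitals mark an E2F core (TTGGCGC, or the same with its middle letters changed to give TTCGCGC, or to give the form TTCCCGC, or to give the form TTGCCGC), the CCAAT box, the octamer (ATTTGCAT) or the TATA box (here the letters TATAAA), each searched on both strands, so that a match on the other strand reads as its reverse complement (ATTGG for CCAAT).
H2afz, chr3:137864237-137864536, plus strand: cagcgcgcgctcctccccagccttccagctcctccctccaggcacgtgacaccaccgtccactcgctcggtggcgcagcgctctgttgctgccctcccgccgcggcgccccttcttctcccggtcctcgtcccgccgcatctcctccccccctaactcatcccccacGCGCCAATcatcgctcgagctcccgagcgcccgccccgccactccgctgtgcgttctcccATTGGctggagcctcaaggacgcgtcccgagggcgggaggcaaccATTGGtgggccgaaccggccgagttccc
H2afv, chr11:6444394-6444693, minus strand: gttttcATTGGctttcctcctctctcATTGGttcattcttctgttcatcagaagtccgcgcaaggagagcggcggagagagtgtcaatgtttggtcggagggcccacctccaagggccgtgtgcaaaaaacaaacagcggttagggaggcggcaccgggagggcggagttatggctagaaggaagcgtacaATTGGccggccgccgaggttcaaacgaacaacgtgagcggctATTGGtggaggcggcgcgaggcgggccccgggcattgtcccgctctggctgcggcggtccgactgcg
H3f3a, chr1:180813556-180813855, minus strand: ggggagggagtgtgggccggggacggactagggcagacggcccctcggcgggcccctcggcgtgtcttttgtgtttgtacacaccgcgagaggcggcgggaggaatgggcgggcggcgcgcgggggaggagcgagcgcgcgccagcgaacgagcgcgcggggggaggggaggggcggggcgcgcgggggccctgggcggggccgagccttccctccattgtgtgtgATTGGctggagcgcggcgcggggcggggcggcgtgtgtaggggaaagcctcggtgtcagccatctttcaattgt
H3f3b, chr11:116024455-116024754, minus strand: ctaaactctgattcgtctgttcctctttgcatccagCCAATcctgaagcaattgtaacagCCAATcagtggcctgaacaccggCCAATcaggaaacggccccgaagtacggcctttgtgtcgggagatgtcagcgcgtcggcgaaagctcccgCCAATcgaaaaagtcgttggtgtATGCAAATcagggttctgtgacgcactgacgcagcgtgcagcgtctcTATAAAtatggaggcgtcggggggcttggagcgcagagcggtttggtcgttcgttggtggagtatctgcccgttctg
H1fx, chr6:87981433-87981732, minus strand: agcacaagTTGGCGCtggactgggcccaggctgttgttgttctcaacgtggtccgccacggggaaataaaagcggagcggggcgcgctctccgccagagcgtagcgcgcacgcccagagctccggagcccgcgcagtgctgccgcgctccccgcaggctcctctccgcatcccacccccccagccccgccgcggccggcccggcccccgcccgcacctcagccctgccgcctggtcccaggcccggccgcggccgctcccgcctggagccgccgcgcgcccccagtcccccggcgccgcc
The start base is counted as 0. The fuller E2F site, which is the core with 1 more T before it, was found in 0 of 10 windows, against 2.26% of all 32851 windows. An E2F core was found in 3 of 10 windows, in H2afz at -83, where it overlaps a CCAAT box at -80, in H1fx at -242 and in H2afy2 at -58 and 32. The core occurs in 9.57% of all windows. CCAAT was found in 7 of 10 windows, against 37.4% of all, and 4 times each in H2afv and H3f3b. The octamer, found in H3f3b at -74, occurs in 1.74% of all windows, and TATAAA, found in H3f3b at -27, in 13.6%. These matches are descriptions of the sequence and not measured binding sites.

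The values are the authors' normalized counts, rounded to whole numbers. Library totals lay between 34014608 and 46057140, and the highest were in the serum 2 h libraries. The E2f1 gene was listed at 1703 and 1637 in E2F1 cells at 0 h, 1535 and 1755 at 2 h, 3806 and 3602 at 6 h, and 2683 and 2845 at 12 h of doxycycline, and at 1307 to 1655 over the 8 EV line libraries at 0, 2, 6 and 12 h of doxycycline. After serum it was 802 and 740 at 2 h, 1186 and 956 at 6 h, and 4615 and 4247 at 12 h, the last pair above every E2F1 line library. Whether transcripts of the construct are counted under this gene is not stated. All 6 fibroblast markers were in the table, and none of 4 epithelial, 3 blood and 2 endothelial markers was. The lines differ in other genes too. Of 10 genes whose level in the E2F1 line was 8-fold or more that in the EV line at 0, 6 and 12 h, all 10 were higher in the EV line at 2 h of doxycycline than at 0 h, and all 10 were lower in the E2F1 line at 2 h than at 0 h. At 2 h of serum 8 of the 10 had a higher mean than at EV 0 h, as had 6 at 6 h of doxycycline in the EV line and 3 at both 6 and 12 h of serum. Ddx3y, a Y-linked gene, was listed at 580 and 521 in the E2F1 line and 9 and 4 in the EV line before induction, but at 103 and 71 in the EV line at 2 h of doxycycline and at 132 and 170 at 2 h of serum. It was 31 and 18 in the EV line at 6 h and 9 and 4 at 12 h of doxycycline, and 48 and 35 at 6 h and 29 and 19 at 12 h of serum. The 10 genes were picked by their values at 0, 6 and 12 h, so a shift at 2 h can be partly built into the choice. At 2 h of serum Arc (661 and 645) and Nes (657 and 606) lay above every E2F1 line library. At 2 h of doxycycline the lines lay nearer each other in these 10 genes than at 0 h. For Ddx3y the EV line libraries at 6 h of doxycycline and at 6 and 12 h of serum also lay above those at 0 h. The part of this in the results was not tested. The other counts below were also taken without the 2 h libraries, and 6 calls of single histone genes were then lost. In bulk RNA, fewer cells that express a gene and less RNA per cell cannot be told apart.

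Log2 changes are differences of log2(value + 1), and a gene was called changed at an adjusted p (padj) of at most 0.05 over all 11208 genes in limma. Before induction none of the 12 histone genes was called between the lines at 0 h, and 2 had an unadjusted p under 0.05, while 15% of all genes were called. On the scale per kilobase of annotated exon, the highest means in the E2F1 line at 0 h were 7249.5 for H3f3b, 5644.8 for H1f0, 4027.1 for H3f3a and 3789.1 for H2afz. Hist1h1c, H1fx and Hist2h2be were lowest, at 164, 117 and 55.7 per kilobase. The length is that of all annotated exons of a gene merged. For H2afz it is 1776 bases, against 1069 for its longest protein-coding transcript, so the order among the highest genes depends on this choice. The mean of Hist2h2be over all libraries was 129, close to the lowest mean of any gene in the table, 99.6, so histone genes of lower level are outside it.

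At 2 h of doxycycline no histone gene passed the test in either line. In the E2F1 line 0 of 12 were called at 2 h and 0 had an unadjusted p under 0.05, against 1.86% of all genes called. For EV cells at 2 h the counts were also 0 and 0, against 7.35% of all genes. Leaving out EV 0 h replicate 1 gave 1 call in the EV line at 2 h.

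From 6 h H2afz and H3f3a, which encode an H2A.Z and the H3.3 protein, rose in the E2F1 line, and at 12 h H2afv, the other H2A.Z gene, was also called higher. At 6 h 5 histone genes were higher (H1fx, H3f3a, H2afz, H2afy and H2afy2) and 2 were lower (Hist1h1c and Hist2h2be), where 28.8% of all genes were called higher and 22.9% lower. At 12 h 7 were higher, the same 5 with H2afx and H2afv, and 1, Hist1h1c, was lower, where 31.8% of all genes were called higher and 29.7% lower. The median log2 change at 12 h was 0.77 over the 12 genes and -0.02 over all genes. The 7 rises at 12 h were called under each alternative fit in which the gene was tested, and 5 of them were of at least 2-fold. Between 6 and 12 h 7 genes rose (H2afz, H2afv, H2afx, H2afy, H3f3a, H3f3b and Hist2h2be), against 15.1% of all genes. Of these, H2afz, H2afy and H3f3a were already called higher at 6 h, and Hist2h2be had been called lower. The sum over the 12 genes was 0.186% and 0.195% of the library total at 0 h and 0.333% and 0.369% at 12 h.

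**Figure D1:**
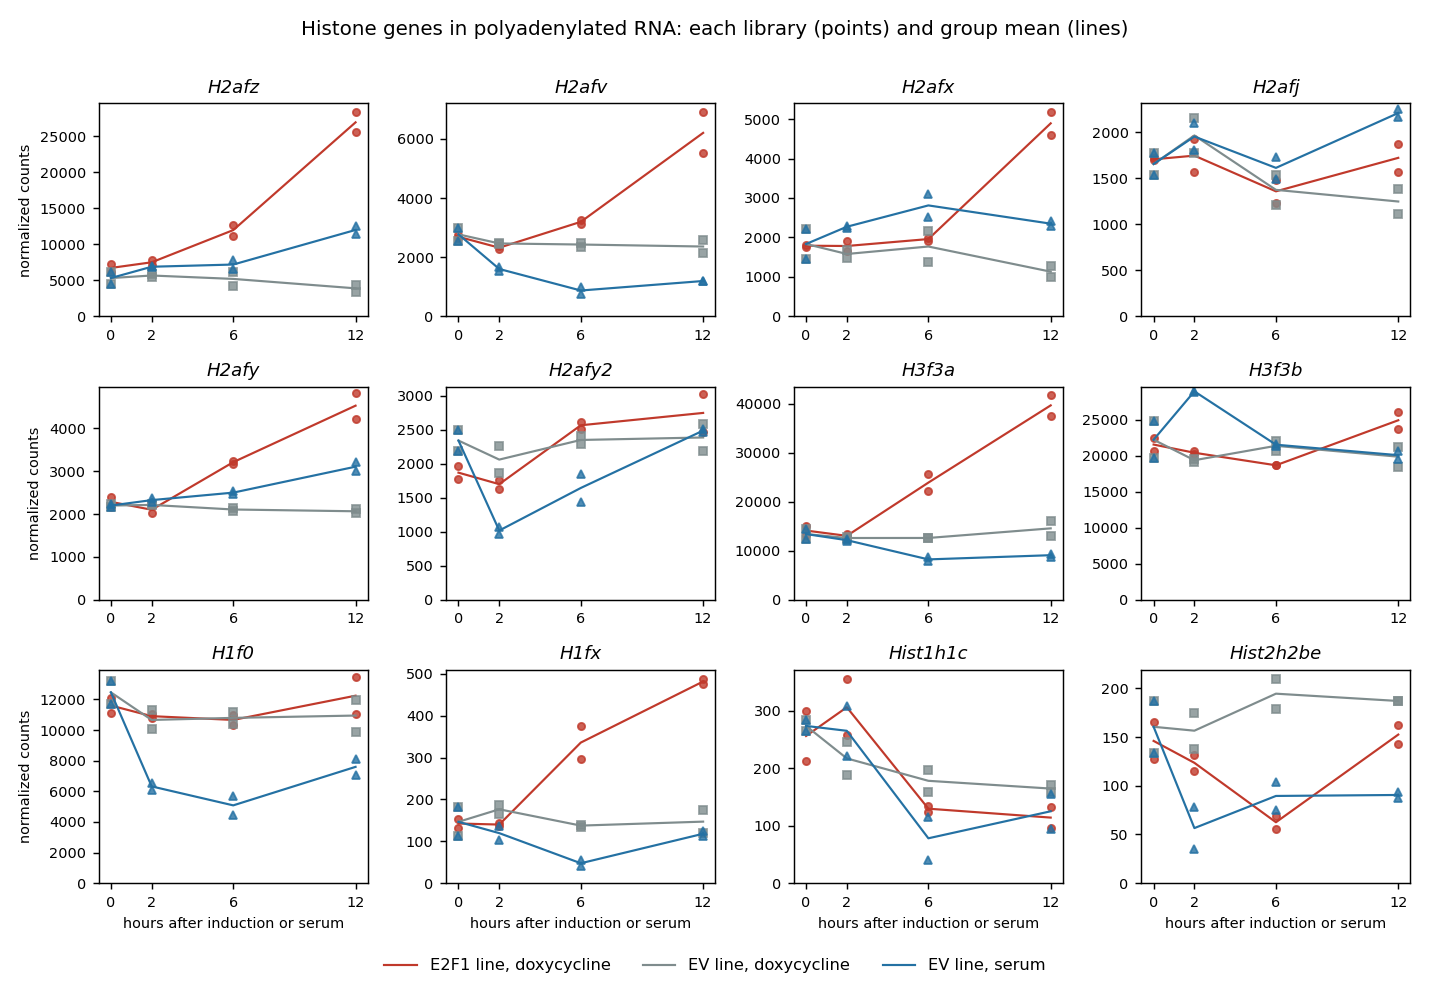
Normalized counts of the 12 histone genes (y axes, linear, starting at 0) against hours after doxycycline or serum (x axes), with points for libraries and lines through group means; the EV 0 h libraries start both EV courses. H2afz reached 25541 and 28304 in the E2F1 line at 12 h, while H3f3a fell to 8769 and 9410 after 12 h of serum.

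H2afz encodes H2A.Z, the variant found at nucleosomes that flank active start sites. Its values in the E2F1 line were 7287 and 6172 at 0 h, 7142 and 7883 at 2 h, 12744 and 11209 at 6 h, and 25541 and 28304 at 12 h. The 6 h and the 12 h libraries lay above all earlier ones of the line, with no overlap. The log2 change was 0.83 (SE 0.16, padj = 0.000396) at 6 h and 2.0 (SE 0.16, padj = 1.14e-08) at 12 h, a 4.01-fold rise. In the authors' deposited table the log2 fold change of H2afz at 12 h was 2.01 with an adjusted p of 3.19e-72. It was the only 1 of the 12 genes in their tables, whose smallest listed absolute change is 2.0. In the EV line under doxycycline H2afz was 4536 and 6116 at 0 h, 5859 and 5499 at 2 h, 4207 and 6206 at 6 h, and 3370 and 4431 at 12 h. The EV 12 h libraries lay below both EV 0 h libraries, and the log2 change was -0.45 (SE 0.16, padj = 0.155), or -0.66 without EV 0 h replicate 1 (padj = 0.037). The change in the E2F1 line exceeded that in the EV line by 0.88 at 6 h (SE 0.23, padj = 0.00692) and 2.45 at 12 h (SE 0.23, padj = 1.52e-07). Without EV 6 h doxycycline replicate 1 the 6 h difference was 0.6 (padj = 0.0524).

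Serum also raised H2afz, with values of 6821 and 6969 at 2 h, 6624 and 7778 at 6 h, and 12509 and 11489 at 12 h. All 6 serum libraries lay above both EV 0 h libraries. The rise at 12 h was 1.19 on the log2 scale (SE 0.16, padj = 5.55e-06), and it was smaller than in the E2F1 line by 0.82 (SE 0.23, padj = 0.00735). The rises of 0.39 at 2 h (padj = 0.0427) and 0.45 at 6 h (padj = 0.0231) depended on the scaling. With quantile normalization they were -0.05 and 0.13, and with equal library totals 0.01 and 0.23. Neither was called without EV 0 h replicate 1, at 0.17 and 0.23. The 2 h rise was 0.6 without EV 0 h replicate 2, and was not called without either serum 2 h library (0.4 and 0.37), nor was the 6 h rise without serum 6 h replicate 2 (0.33). The EV 0 h replicates themselves differed by 0.43 for H2afz, with all 20 genes of an S phase list higher in replicate 2 by a median of 0.65. The part of this difference in the results was not tested.

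H2afv, the paralogue that encodes the other H2A.Z protein, rose with E2F1 and fell with serum. In the E2F1 line it was 2649 and 2738 at 0 h, 2365 and 2284 at 2 h, 3258 and 3139 at 6 h, and 5516 and 6896 at 12 h. The log2 change was 0.25 at 6 h (padj = 0.104, or 0.0282 with only the groups compared) and 1.2 at 12 h (SE 0.12, padj = 2.06e-07). EV cells had 2549 and 3001 at 0 h, and 2140 to 2588 over the 6 doxycycline libraries. After serum it was 1538 and 1672 at 2 h, 759 and 995 at 6 h, and 1184 and 1213 at 12 h, below every EV library without serum. The serum changes were -0.79 at 2 h (padj = 1.73e-05), -1.67 at 6 h (padj = 1.8e-09) and -1.21 at 12 h (padj = 1.58e-07). At 12 h the change with E2F1 exceeded that with serum by 2.4 (SE 0.18, padj = 8.76e-09) and that in the EV line by 1.43 (SE 0.18, padj = 2.73e-06).

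The ratio of H2afz to H2afv within a library does not depend on how libraries are scaled. It was 2.75 and 2.25 in the E2F1 line at 0 h and 4.63 and 4.1 at 12 h. In the EV line it was 1.78 and 2.04 at 0 h, and after serum 4.43 and 4.17 at 2 h, 8.73 and 7.82 at 6 h, and 10.6 and 9.47 at 12 h. The serum libraries at 6 and 12 h thus had higher ratios than any E2F1 library.

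H3f3a and H3f3b encode the same H3.3 protein, the replacement form of H3, and their values took different courses in the E2F1 line. H3f3a was 13233 and 14989 in E2F1 cells at 0 h, 13327 and 12740 at 2 h, 22214 and 25556 at 6 h, and 37521 and 41734 at 12 h. Its log2 change was 0.76 at 6 h (SE 0.1, padj = 7.68e-06) and 1.49 at 12 h (SE 0.1, padj = 1.49e-09), a 2.81-fold rise. H3f3b was 20624 and 22525 at 0 h, 20246 and 20626 at 2 h, 18717 and 18669 at 6 h, and 23768 and 26135 at 12 h. Its log2 changes were -0.21 at 6 h (padj = 0.0782) and 0.21 at 12 h (interval 0.01 to 0.41, padj = 0.0636). The 6 h change was called lower with quantile normalization (-0.28, padj = 0.00678), equal totals (-0.32, padj = 0.00556) and only the groups compared (padj = 0.044), and the 12 h change was called higher with quantile normalization (0.27, padj = 0.00783). H3f3a thus passed H3f3b in both E2F1 libraries at 6 and at 12 h, having been below it in every library at 0 h.

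In the EV line H3f3a was 12423 and 14375 at 0 h, 12401 and 12787 at 2 h, 12533 and 12669 at 6 h, and 13041 and 16078 at 12 h of doxycycline. The 12 h change was 0.12 (padj = 0.622), and E2F1 exceeded it by 1.37 (SE 0.15, padj = 5.09e-07). After serum H3f3a was 11928 and 12374 at 2 h, 7836 and 8627 at 6 h, and 8769 and 9410 at 12 h. It fell, with log2 changes of -0.7 at 6 h (SE 0.1, padj = 9.35e-06) and -0.56 at 12 h (SE 0.1, padj = 0.000128). E2F1 exceeded serum by 1.46 at 6 h (SE 0.15, padj = 1.51e-07) and by 2.05 at 12 h (SE 0.15, padj = 6.83e-09). The opposite directions of H3f3a with E2F1 and with serum held under each scaling tried.

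H3f3b was 19679 and 24815 in the EV line at 0 h, and after serum 29083 and 28856 at 2 h, 21442 and 21666 at 6 h, and 19569 and 20624 at 12 h. The rise at 2 h was 0.39 (padj = 0.00125), but -0.11 with quantile normalization, 0.02 with equal totals, and 0.22 without EV 0 h replicate 1 (padj = 0.0475). At 6 and 12 h of serum the changes were -0.04 and -0.14, with adjusted p of 0.752 and 0.209. Both were called lower with quantile normalization (-0.37, padj = 0.000572, and -0.25, padj = 0.0122) and with equal totals (-0.25, padj = 0.0196, and -0.22, padj = 0.0395). Without EV 0 h replicate 1 the 12 h change was -0.3 (padj = 0.0114), and without EV 0 h replicate 2 the changes were 0.13 and 0.03. The ratio of H3f3a to H3f3b was 0.642 and 0.665 in E2F1 cells at 0 h, 1.19 and 1.37 at 6 h, and 1.58 and 1.6 at 12 h. In the EV line it was 0.631 and 0.579 at 0 h and 0.705 and 0.756 at 12 h of doxycycline. After serum it was 0.41 and 0.429 at 2 h, 0.365 and 0.398 at 6 h, and 0.448 and 0.456 at 12 h, below every library of the other groups.

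**Figure D2:**
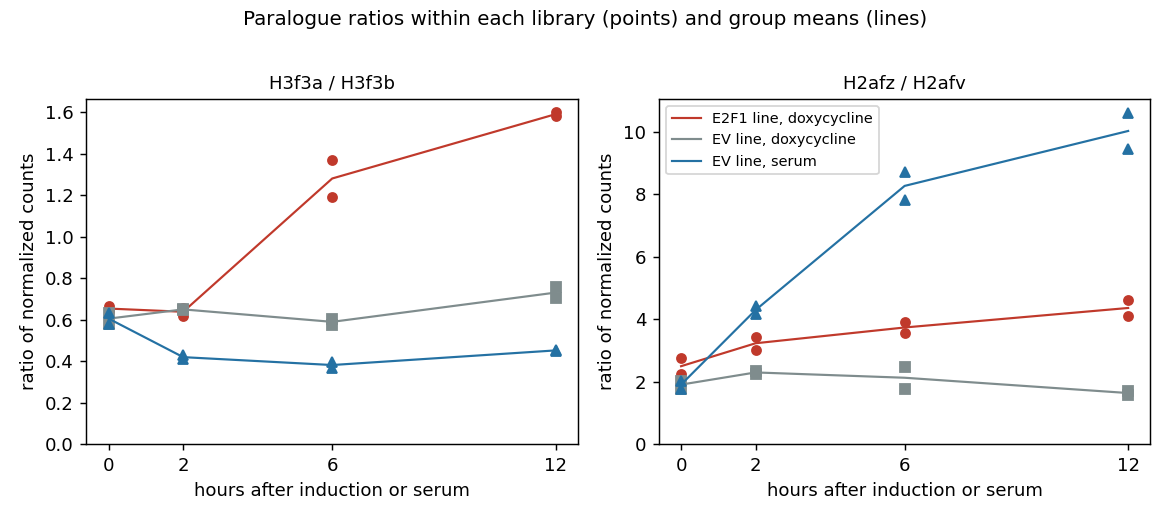
Ratio of normalized counts of H3f3a to H3f3b (left) and of H2afz to H2afv (right) against hours after doxycycline or serum, with points for libraries and lines through group means. The H3f3a to H3f3b ratio was 1.58 and 1.6 in the E2F1 line at 12 h and 0.448 and 0.456 with serum, while H2afz to H2afv was highest with serum, at 10.6 and 9.47.

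H2afx encodes H2A.X, which is phosphorylated at DNA breaks, and its message is 1 of the 2 here with a stem-loop. In the E2F1 line it was 1821 and 1762 at 0 h, 1662 and 1907 at 2 h, 1922 and 1998 at 6 h, and 4595 and 5186 at 12 h. It changed by 0.13 at 6 h (padj = 0.582) and by 1.45 at 12 h (SE 0.19, padj = 2.91e-06), so the rise lay between 6 and 12 h (1.32, padj = 5.72e-05). EV cells had 1459 and 2211 at 0 h, 1687 and 1477 at 2 h, 1379 and 2163 at 6 h, and 992 and 1276 at 12 h of doxycycline. It was the only 1 of 12 called in the EV line at 12 h, with a log2 change of -0.67 (padj = 0.0496), where 3.42% of all genes were called lower. That call was lost without all 2 h libraries (padj = 0.103), without EV 12 h replicate 1 (-0.49, padj = 0.391) and without EV 0 h replicate 2 (-0.37, padj = 0.657), and without EV 0 h replicate 1 the count was 3. At 6 h of doxycycline in EV cells 0 of 12 were called and 0 had an unadjusted p under 0.05, against 0.134% of all genes.

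The replicates of the EV line differed in H2afx by 0.6 at 0 h, 0.65 at 6 h and 0.36 at 12 h of doxycycline, with replicate 2 higher each time. In the same pairs 20, 20 and 17 of the 20 S phase genes were higher in replicate 2. Of the 20, 17 were called lower at 12 h of doxycycline than at 0 h, against 3.42% of all genes. The part of these values in the H2afx call was not tested. After serum H2afx was 2293 and 2250 at 2 h, 2525 and 3099 at 6 h, and 2415 and 2285 at 12 h. The change was 0.64 at 6 h (padj = 0.00585) and 0.39 at 12 h (padj = 0.0773). The 12 h change was 0.69 and called without EV 0 h replicate 2 (padj = 0.00641), and 0.09 without EV 0 h replicate 1 (padj = 0.727). The 6 h call was lost without EV 0 h replicate 1 (0.34, padj = 0.149), without serum 6 h replicate 2 (0.49, padj = 0.0694) and with equal totals (0.42, padj = 0.0512). The 12 h rise with E2F1 exceeded the EV change by 2.12 (SE 0.27, padj = 3.18e-06) and the serum change by 1.06 (SE 0.27, padj = 0.003).

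H2afy and H2afy2 encode the macroH2A proteins, H2A variants with a large additional domain. H2afy was 2396 and 2171 in E2F1 cells at 0 h, 3247 and 3170 at 6 h and 4827 and 4225 at 12 h. It rose by 0.49 at 6 h (padj = 5.46e-05) and 0.99 at 12 h (padj = 9.47e-09), and by 0.5 at 12 h of serum (padj = 2.81e-05). Its serum change of 0.19 at 6 h (padj = 0.0481) was -0.03 with equal totals and was not called without any 1 of the 4 libraries compared (0.16 to 0.21). H2afy2 was 1769 and 1969 in E2F1 cells at 0 h, 2512 and 2619 at 6 h, and 2465 and 3029 at 12 h, with changes of 0.46 (padj = 0.00682) and 0.55 (padj = 0.00131). The call at 6 h was lost without E2F1 0 h replicate 1 (0.38, padj = 0.0662) and with quantile normalization (0.28, padj = 0.0797). After serum H2afy2 fell, with changes of -1.2 at 2 h (padj = 1.58e-07) and -0.52 at 6 h (padj = 0.00182), and at 12 h the change was 0.09 (padj = 0.553). Without serum 6 h replicate 2 the 6 h change was -0.33 (padj = 0.0517).

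H2afj, an H2A variant gene, was not called at 6 or 12 h in the E2F1 line, with changes of -0.33 (padj = 0.0709) and 0.01 (padj = 0.966). The 6 h change was called lower with quantile normalization (-0.49, padj = 0.0105), equal totals (-0.45, padj = 0.0173), only the groups compared (padj = 0.0274) and without E2F1 6 h replicate 1 (-0.47, padj = 0.0495). At 12 h of serum it was 2163 and 2258, against 1542 and 1771 at 0 h, a rise of 0.42 (padj = 0.0206). The call was lost with quantile normalization (0.28), with equal totals (0.34), without either serum 12 h library (0.45 and 0.39) and without EV 0 h replicate 1 (0.32).

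Among the linker histones, H1fx rose with E2F1, H1f0 fell with serum, and Hist1h1c was lower at 12 h of either stimulus. H1fx was 154 and 131 in E2F1 cells at 0 h, 143 and 137 at 2 h, 375 and 297 at 6 h, and 487 and 477 at 12 h. It rose by 1.23 at 6 h (SE 0.26, padj = 0.000761) and by 1.76 at 12 h (SE 0.26, padj = 1.36e-05), a 3.38-fold change. EV cells had 181 and 112 at 0 h, 187 and 166 at 2 h, 135 and 140 at 6 h, and 120 and 174 at 12 h of doxycycline, and the E2F1 change exceeded the EV change by 1.73 at 12 h (SE 0.37, padj = 0.000745). The difference at 6 h was 1.28 (padj = 0.012), but 1.11 without E2F1 6 h replicate 1 (padj = 0.0606) and 0.93 without EV 0 h replicate 1 (padj = 0.0687). After serum H1fx was 136 and 103 at 2 h, 40 and 55 at 6 h, and 112 and 124 at 12 h. It fell at 6 h (-1.58, SE 0.26, padj = 3.32e-05, or -0.79 with quantile normalization, padj = 0.013), and its change at 12 h was -0.27 (padj = 0.37). E2F1 exceeded serum by 2.81 at 6 h (SE 0.37, padj = 3.87e-06) and by 2.03 at 12 h (SE 0.37, padj = 0.000199).

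H1f0 encodes H1.0, a linker histone known to accumulate in resting and differentiated cells. It was 11097 and 12103 in E2F1 cells at 0 h, 11036 and 10775 at 2 h, 10338 and 10981 at 6 h, and 11020 and 13466 at 12 h, with changes of -0.12 (padj = 0.425) at 6 h and 0.07 (interval -0.19 to 0.33, padj = 0.632) at 12 h. Neither was called, but with quantile normalization the 6 h change was called lower (-0.34, padj = 0.0303). EV cells had 11719 and 13201 at 0 h. After serum it was 6071 and 6564 at 2 h, 4442 and 5715 at 6 h, and 7050 and 8138 at 12 h, below every other library. It fell at each time, with log2 changes of -0.98 at 2 h (padj = 1.14e-06), -1.3 at 6 h (SE 0.12, padj = 3.95e-08) and -0.72 at 12 h (SE 0.12, padj = 6.12e-05). The E2F1 change exceeded the serum change by 1.18 at 6 h (padj = 1.51e-05) and 0.79 at 12 h (padj = 0.00116).

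Hist1h1c, 1 of the 2 cluster genes in the table, was 300 and 212 in E2F1 cells at 0 h, 355 and 257 at 2 h, 124 and 135 at 6 h, and 96 and 132 at 12 h. It fell, with log2 changes of -0.96 at 6 h (SE 0.37, padj = 0.0355) and -1.16 at 12 h (SE 0.37, padj = 0.0105). The 6 h call was lost without all 2 h libraries (padj = 0.0519), without E2F1 0 h replicate 1 (-0.71) and without either E2F1 6 h library (-0.9 and -1.02). The 12 h call was lost without E2F1 0 h replicate 1 (-0.91, padj = 0.0989) and without E2F1 12 h replicate 1 (-0.93, padj = 0.094). EV cells had 283 and 264 at 0 h, 188 and 246 at 2 h, 197 and 159 at 6 h, and 171 and 158 at 12 h of doxycycline. That change at 12 h was -0.73 (padj = 0.325), and the difference between the lines, -0.43 (interval -1.51 to 0.66, padj = 0.517), was not called. After serum it was 221 and 309 at 2 h, 41 and 115 at 6 h, and 95 and 155 at 12 h, with falls at 6 h (-1.97, padj = 0.000113) and 12 h (-1.16, padj = 0.00938). Without serum 6 h replicate 1 the 6 h change was -1.24 (padj = 0.00381), and without serum 12 h replicate 1 the 12 h change was -0.81 (padj = 0.12).

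Hist2h2be, the other cluster gene and the only H2B gene measured, fell at 6 h of E2F1 and was back near its starting level at 12 h. It was 127 and 165 in E2F1 cells at 0 h, 132 and 115 at 2 h, 56 and 69 at 6 h, and 162 and 143 at 12 h. The change was -1.21 at 6 h (SE 0.32, padj = 0.00418), 1.28 from 6 to 12 h (SE 0.32, padj = 0.00486) and 0.07 at 12 h against 0 h (padj = 0.856). EV cells had 187 and 134 at 0 h, 175 and 138 at 2 h, 210 and 179 at 6 h, and 187 and 187 at 12 h of doxycycline. The 6 h difference between the lines was -1.5 (SE 0.45, padj = 0.0152). It was not called when any of 4 libraries was left out: E2F1 6 h replicate 1 (-1.35), E2F1 0 h replicate 2 (-1.31), EV 6 h replicate 1 (-1.38) or EV 0 h replicate 2 (-1.26). After serum it was 78 and 35 at 2 h, 75 and 104 at 6 h, and 87 and 94 at 12 h, below both EV 0 h libraries. The serum changes were -1.58 (padj = 0.000227), -0.83 (padj = 0.0274) and -0.8 (padj = 0.0343). The first was -1.01 without serum 2 h replicate 2 (padj = 0.00941) and -0.78 with quantile normalization (padj = 0.0285). The 6 h call was lost without EV 0 h replicate 1 (-0.6) or serum 6 h replicate 1 (-0.6), and the 12 h call without EV 0 h replicate 1 (-0.56) or either serum 12 h library (-0.75 and -0.86). Quantile normalization also ended both, at -0.27 and -0.43.

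Counted by comparison, histone genes were called in both directions after serum, as were the genes of the whole table. At 2 h of serum 2 of 12 were higher (H2afz and H3f3b) and 4 lower (H1f0, H2afv, H2afy2 and Hist2h2be), where 37.5% of all genes were called higher and 33.5% lower. At 6 h 3 were higher (H2afx, H2afy and H2afz) and 7 lower (H1f0, H1fx, H2afv, H2afy2, H3f3a, Hist1h1c and Hist2h2be), against 36.5% and 31% of all genes. The 3 rises at 6 h are those lost above when 1 library was left out. At 12 h 3 were higher (H2afj, H2afy and H2afz) and 5 lower (H1f0, H2afv, H3f3a, Hist1h1c and Hist2h2be), against 36% and 29.7%. From 6 to 12 h of serum 7 rose (H1f0, H1fx, H2afj, H2afv, H2afy, H2afy2 and H2afz), against 19.3%. In that comparison the calls of H2afj, H2afv and H2afy were each lost when a library was left out, at 0.35 to 0.49 for H2afj, at 0.27 without serum 6 h replicate 1 for H2afv and at 0.26 without serum 12 h replicate 2 for H2afy. Without the 2 h libraries the counts were 9 at 6 h and 8 at 12 h of serum.

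The difference between the E2F1 and EV changes was called higher for 4 genes (H1fx, H2afy, H2afz and H3f3a) and lower for Hist2h2be at 6 h, where 22.2% of all genes were called higher and 12.3% lower. At 12 h it was called higher for 8 (H1fx, H2afv, H2afx, H2afy, H2afy2, H2afz, H3f3a and H3f3b), and lower for none, against 27.3% and 23.3% of all genes. The difference between the E2F1 and serum changes was called higher for 6 at 6 h (H1f0, H1fx, H2afv, H2afy, H2afy2 and H3f3a) and lower for none, against 30.3% and 27.6% of all genes. At 12 h it was called higher for 9 (those 6 with H2afx, H2afz and H3f3b) and lower for none, against 25% and 23.8%. These comparisons share the E2F1 line and the EV 0 h libraries. Several small differences rested on single libraries. The 12 h values of H3f3b, 0.37 against EV and 0.35 against serum, were not called without all 2 h libraries (padj = 0.0593 and 0.0736), nor without EV 0 h replicate 2 (0.2 and 0.18), E2F1 0 h replicate 1 (0.3 and 0.28) or E2F1 12 h replicate 2 (0.3 and 0.28). The first was also lost without EV 12 h replicate 1 (0.26), and the second without either serum 12 h library (0.31 and 0.38). The 12 h values of H2afy2, 0.52 and 0.46, were not called without E2F1 0 h replicate 1 (0.45 and 0.38), E2F1 12 h replicate 2 (0.38 and 0.31) or EV 0 h replicate 1 (0.43 and 0.36). The first was also lost without EV 12 h replicate 1 (0.41), and the second without either serum 12 h library (0.47 and 0.45). The second was also not called without all 2 h libraries (padj = 0.0547). The 6 h value of H2afy against serum, 0.31, was not called without E2F1 6 h replicate 1, E2F1 0 h replicate 2, EV 0 h replicate 1 or serum 6 h replicate 2 (0.24 to 0.29).

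**Figure D3:**
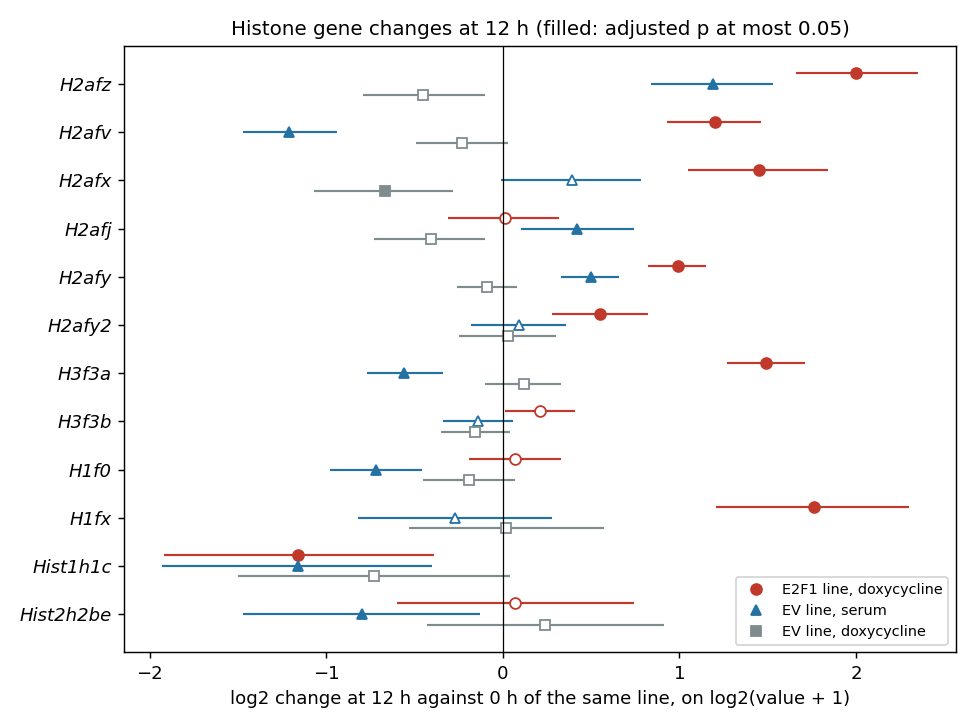
Log2 change at 12 h against 0 h of the same line (x axis, on log2(value + 1)) for each histone gene (y axis), with 95% intervals from limma; filled symbols passed an adjusted p of at most 0.05. H3f3a and H2afv lie on opposite sides of 0 with E2F1 (1.49 and 1.2) and with serum (-0.56 and -1.21), and H2afz is to the right with both (2.0 and 1.19).

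A list of 28 genes of histone gene transcription, message 3′ end processing and message decay had 27 in the table. Some of them, such as Cpsf1, Cstf1 and Upf1, also act on messages other than those of histones. In the E2F1 line 3 of the 27 were higher at 2 h (Npat, Casp8ap2 and Slbp, named after their values were seen), where 0.865% of all genes were called higher. At 6 h 15 rose and 2 fell, against 28.8% of all genes higher and 22.9% lower, and at 12 h 18 rose and 2 fell, against 31.8% and 29.7%. Doxycycline in EV cells gave 2 higher (Casp8ap2 and Cpsf2) and 1 lower (Fip1l1) at 2 h, against 4.93% and 2.43% of all genes. It gave 0 calls at 12 h, with 3 at an unadjusted p under 0.05, against 0.749% of all genes called higher and 3.42% lower. Casp8ap2 rose at 2 h in both lines, by 0.46 in E2F1 cells (padj = 0.0231) and 0.35 in EV cells (padj = 0.0413). After serum 17 were higher and 4 lower at 12 h, against 36% and 29.7%. The median log2 change at 12 h was 0.42 with E2F1 and 0.44 with serum, against -0.02 and 0.05 over all genes. Slbp, the stem-loop binding protein, was 2029 and 1962 in E2F1 cells at 0 h, 12492 and 12426 at 6 h and 12202 and 12754 at 12 h, and rose by 2.64 at 12 h (SE 0.12, padj = 2e-11). With serum its 12 h rise was 1.44 (padj = 1.88e-08), smaller by 1.21 (padj = 2.18e-05). In EV cells Slbp was 1241 and 1558 at 0 h. Before induction 5 of the 27 genes, Slbp and Cstf2 among them, were already called higher in E2F1 cells, against 8.86% of all genes. The part of this in the later differences was not tested. Eri1, an exonuclease that trims the stem-loop end, rose by 2.67 with E2F1 (padj = 1.97e-12) and 1.46 with serum (padj = 7.51e-10). Nelfe rose by 2.32 at 12 h with E2F1 (padj = 1.97e-12) and was also called higher at 12 h of serum. Tut4, a uridylyltransferase, rose by 1.51 with E2F1 (padj = 5.73e-10) and fell with serum (-0.34, padj = 0.00444). Cstf2, the cleavage stimulation factor CstF64, rose by 1.23 with E2F1 (padj = 2.24e-09) and 1.46 with serum (padj = 2.81e-10).

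The S phase list of 20 replication genes was all in the table. With E2F1 20 were higher at 6 h and 19 at 12 h, and with serum 20 were higher at 12 h, where 28.8%, 31.8% and 36% of all genes were called higher. At 2 h and at 6 h of serum 3 of the 20 were called higher and 6 lower. The shares of all genes were 37.5% and 33.5% at 2 h, and 36.5% and 31% at 6 h. At 12 h Rrm2, a ribonucleotide reductase subunit, rose by 3.65 with E2F1 (padj = 1.11e-09) and 3.04 with serum (padj = 7.3e-09). Cdc6, Mcm5 and Mcm3, which license replication origins, rose by 3.33, 2.78 and 2.68 with serum, and by 1.56, 1.14 and 1.24 with E2F1. The difference between the E2F1 and serum changes at 12 h was called lower for 8 of the 20 and higher for 1, against 23.8% and 25% of all genes, with a median of -0.75, while the median over the 12 histone genes was 0.8. Before induction 12 of the 20 were already called higher in E2F1 cells at 0 h, against 8.86% of all genes, and the part of this in the histone results was not tested. Cenpa, the centromeric H3 variant, lies outside the name rule. In E2F1 cells it was 2583 and 2571 at 0 h and 8495 and 8560 at 12 h, a rise of 1.73 (padj = 1.05e-05), and it fell at 12 h of serum (-0.97, padj = 0.00235) and in the EV line at 12 h of doxycycline (-1.31, padj = 0.00639).

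Several of these genes have near copies or annotated neighbours that could share reads, and whether the counting used strand is not stated. For each gene the 75-base windows of its longest protein-coding transcript were searched, on either strand, in transcripts of other genes. Reads were 150 bases and paired, so the percentages are not those of shared reads. For H2afz 61.7% of the windows also occur in transcripts of 6 other genes, and for H3f3a 27.9% occur in 29 others. The shares were 12.2% for H1fx, 8.85% for H2afy2, 6.87% for H2afx and 6.66% for Hist1h1c, and 0 for H2afv and Hist2h2be. Exons of other annotated genes overlap H1f0, H1fx, H2afj, H2afx, H2afy, H2afy2 and H3f3a. Values of these genes are uncertain to the extent that reads were split or shared in counting, which was not tested.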

How the data were processed

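Polyadenylated RNA of 22 libraries in 11 groups of 2 was measured, sequenced as paired-end reads of 150 bases per the labels' protocols. The submitters' processing notes name FastQC, Trimmomatic, HISAT2, featureCounts, DESeq2 and the genome build mm10, with no role or order; the annotation release, strand setting and scaling are not given in the sources used here. The main table holds normalized counts for 11208 genes that the authors rounded to whole numbers, treated here as a score and not as raw counts. Further tables hold the log2 fold change as the authors deposited it, each with an adjusted p-value as the authors deposited it. They were used only for H2afz, and their serum tables name a serum 0 h group.

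On the scale log2(value + 1), limma 3.58.1 (R 4.3.3) was fitted with a mean for each group over all libraries, a mean-variance trend and 11 residual degrees of freedom. Benjamini-Hochberg adjustment ran over all genes of a comparison, with a threshold of 0.05. Differences between changes were contrasts of the same model. Groups and replicate numbers came from the labels. A minimum of 10 in 2 libraries removed 0 genes. Totals of 34014608 to 46057140 are of normalized values, so the depth in reads is unknown, and 2 libraries a group limit the precision. The named genes are all 12 members and selected genes of each context list. Values in every library are given for members of largest change at 12 h (up to 4 a comparison) and for H2A.Z, H2A.X and H3.3 genes. Members, lists and alternatives were chosen with earlier results of these data known. A list of variants outside the name rule added only Cenpa, since H2afy and H2afy2 are members.

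Alternatives were a pseudocount of 8, no filter, a mean of at least 500, quantile normalization, equal totals, at least a 2-fold change, a replicate block, a fit to only the groups compared, leaving out the 2 h doxycycline libraries, and leaving out each library. Leaving out all 2 h libraries was added after seeing the data. Where 1 library is left in a group, it is assumed to vary like the other groups. The code was tested on simulated data for the E2F1 12 h comparison with 11208 genes, 200 of them changed. It called 80 of 100 genes changed 2-fold, 55 of 100 changed 1.5-fold and 7 unchanged genes. Of 11208 identifiers 10977 occur in GENCODE M21 with the same version. Sequences are from GENCODE M21 transcripts and RefSeq promoter windows on GRCm38.p6, read with Python 3.11.15, pandas 2.3.3 and numpy 2.4.6; figures were drawn with matplotlib 3.10.9.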

Additional observations from a re-analysis of the deposited data

Results flagged for a closer look

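Changes after 6 or 12 h of doxycycline differed between the E2F1 and EV lines for these histone genes, by an interaction contrast in limma with adjustment over all genes. At 6 h the E2F1 change exceeded the EV change by 1.28 on the log2 scale for H1fx, 0.55 for H2afy, 0.88 for H2afz and 0.84 for H3f3a, and the difference was -1.5 for Hist2h2be, with adjusted p-values of 0.012, 0.000897, 0.00692, 0.000202 and 0.0152. At 12 h the excess was 2.45 for H2afz, 2.12 for H2afx, 1.73 for H1fx, 1.43 for H2afv, 1.37 for H3f3a, 1.08 for H2afy, 0.52 for H2afy2 and 0.37 for H3f3b, with adjusted p-values of 1.52e-07, 3.18e-06, 0.000745, 2.73e-06, 5.09e-07, 4.4e-07, 0.024 and 0.0305.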

How the results depend on the processing

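Of 82 called changes and differences of single histone genes, 57 were called under every alternative fit run and 25 were lost under at least 1; a 2-fold minimum was applied to counts only. Asking for at least a 2-fold change lowered these counts of called genes: E2F1 6 h from 7 to 2, E2F1 12 against 6 h from 7 to 3, EV doxycycline 12 h from 1 to 0, serum 2 h from 6 to 2, serum 6 h from 10 to 4, serum 12 h from 8 to 3, serum 12 against 6 h from 7 to 1, E2F1 against EV at 6 h from 5 to 2, and E2F1 against serum at 12 h from 9 to 4. The 2-fold minimum also removed H2afy (0.99) and H2afy2 (0.55) from the count at E2F1 12 h. From E2F1 against EV at 12 h it removed H2afy2 (0.52) and H3f3b (0.37). From E2F1 against serum at 6 h it removed H2afy (0.31) and H2afy2 (0.98). A mean of at least 500, which leaves 9 genes, gave 4 at E2F1 6 h and 3 for E2F1 against EV at 6 h. The EV doxycycline 12 h count was 0 with equal totals, with only the groups compared, without the 2 h doxycycline libraries and without all 2 h libraries. Leaving out 1 library gave 0 to 1 at EV doxycycline 2 h, 0 to 3 at EV doxycycline 12 h, 6 to 9 at serum 6 h, 5 to 9 at serum 12 h and 3 to 5 for E2F1 against EV at 6 h.

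Some values changed sign, among them the called rises of H2afz and H3f3b at serum 2 h (0.39 each) and of H2afy at serum 6 h (0.19). Quantile normalization gave -0.04 for H2afx at E2F1 6 h, -0.11 for H1f0 and -0.13 for H2afj at E2F1 12 h, -0.05 for H2afz and -0.11 for H3f3b at serum 2 h, and 0.07 for H1fx and -0.05 for H2afy2 at serum 12 h. Equal totals gave -0.05 for H2afj at E2F1 12 h and -0.03 for H2afy at serum 6 h. Leaving out 1 library gave -0.07 to 0.22 for H1f0, -0.12 to 0.13 for H2afj and -0.12 to 0.26 for Hist2h2be at E2F1 12 h, -0.04 to 0.27 for H3f3a at EV doxycycline 12 h, -0.2 to 0.13 for H3f3b at serum 6 h, and at serum 12 h -0.61 to 0.07 for H1fx, 0.0 to 0.19 for H2afy2 and -0.3 to 0.03 for H3f3b. Equal totals moved the median of all genes by -0.37 at serum 2 h and -0.21 at serum 6 h, and quantile normalization by -0.12 at E2F1 6 h and -0.11 at E2F1 12 h. The cause of these changes was not tested.

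Replicate numbers were not shown to pair the libraries: deviations of same-numbered libraries correlated above 0.1 in 18 of 55 pairs of groups and below -0.1 in 6. With the replicate number as a block, H2afy at serum 6 h (adjusted p = 0.0522) and the 12 h difference of H2afy2 between E2F1 and serum (0.0506) were not called, and H3f3b at E2F1 6 h (0.0367) and 12 h (0.0282) and H2afx at serum 12 h (0.0438) were; the counts of called genes under the block were 8 at E2F1 6 h, 9 at E2F1 12 h, 9 at serum 6 h and 9 at serum 12 h.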
